A study of Mus musculus with 24 samples.

Results

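The 5S ribosomal RNA genes described here are the 180 mouse genes whose symbol is n-R5s followed by a number, out of 53900 rows in each count table. They were followed through crosslinking and immunoprecipitation (CLIP) of TET2 and through RNA immunoprecipitation (RIP) with an antibody against 5-hydroxymethylcytosine (hm5C), both in mouse embryonic stem cells. In the CLIP experiment, 2 clones of the E14 line carrying HA-His-tagged Tet2, clone 65 and clone 75, each gave 2 TET2 CLIP and 2 input libraries. The cells had received 4-thiouridine at 500 µM for 4 hours and UVB at 400 mJ/cm2, which crosslinks RNA to bound protein. In the RIP experiment, untreated stem cells of strain B6;129 gave 2 hm5C RIP and 2 input libraries made with a small RNA kit. The medium of all cultures contained CHIR99021 (3 µM), which blocks GSK3, together with PD0325901 (1 µM), which blocks MEK. Each tagged group rested on 1 clone, and no CLIP library of untagged cells was analysed here. The question was which 5S genes were recovered with TET2, and which with the hm5C antibody, above their level in input.

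TET2 belongs to the TET enzymes, which turn the methyl mark on cytosine into hm5C, in RNA as well as in DNA. 5S rRNA is the short RNA of the large ribosomal subunit that RNA polymerase III makes from its own genes, apart from the precursor of the other ribosomal RNAs. It is bound by the transcription factor TFIIIA and, for assembly, by the ribosomal proteins RPL5 and RPL11, a particle that can also bind the p53 regulator MDM2. The genome holds a tandem array of near-identical 5S genes and many scattered copies, of which a large part is taken for pseudogenes.

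The members spanned both kinds. Of the 180, 69 had a position in the RefSeq table of assembly GRCm38.p6, the assembly of mm10, and 111 did not. A run of 41 lay on chromosome 8 between 123538784 and 123622046, a stretch of 83.3 kb, and 40 of these were annotated as rRNA and 1 as a pseudogene. The other 28 with a position lay on 15 chromosomes, 11 annotated as rRNA and 17 as pseudogenes. The 69 genes with a position were 117 to 121 bp long (median 119), so length hardly affects a comparison of levels among them. The other 111 had no annotated length.

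Not every copy carried counts. In the CLIP experiment 121 members had at least 1 count, in the RIP experiment 94, in both 93, and 58 had none in any of the 12 libraries. Of the 41 array members only 11 were counted in CLIP and 10 in RIP. By annotated length, 9 of the 16 array members of 119 bp had CLIP counts, against 2 of the 25 of 121 bp, a split seen after the values were known. Rn5s and 7 further 5S genes of the array outside the naming rule had 0 counts in all 12 libraries, which allows up to 3 counts in each. All 11 dispersed rRNA copies were counted in CLIP, with a median of 566 counts over the 8 libraries, and all 17 dispersed pseudogenes, with a median of 199. Near-identical copies can share or lose reads, so the value of a single member is uncertain, and the sum over all 180 covers what was assigned to them, not all 5S rRNA of the cells.

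Total counts were 913002 to 4729463 in CLIP inputs, 221060 to 453944 in TET2 CLIP, 4641963 to 4889943 in RIP inputs and 1564014 to 2100187 in hm5C RIP. The labels give all CLIP libraries 1 run identifier and all RIP libraries another, so they name no batch within either experiment. Replicates differed by more than counting error over all genes. All 8 stem cell markers, among them Pou5f1, Sox2 and Nanog, were counted in both experiments, with summed levels of 1016 to 1840 counts per 1000000 (CPM) in CLIP inputs but 22.6 to 24.1 in RIP inputs. In hm5C RIP, Acsl6 alone took 55.2% and 60.6% of all counts, against 0.255% and 0.167% in RIP input, and each share in those libraries includes it in the denominator.

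5S rRNA counts were enriched in TET2 CLIP of both clones. Summed over the 180 members, they made up 0.236% and 0.250% of the counts in the inputs of clone 65 and 1.33% and 1.61% in its TET2 CLIP libraries. In clone 75 they made up 0.182% and 0.244% of the inputs and 0.997% and 0.776% of TET2 CLIP. Every TET2 CLIP library lay above every input library, and clone 75 lay below clone 65 in TET2 CLIP. Mean shares were 0.243% ± 0.00998 and 1.47% ± 0.198 in clone 65 (SD, n = 2), a ratio of 6.04, and 0.213% ± 0.0441 and 0.887% ± 0.157 in clone 75 (SD, n = 2), a ratio of 4.16. The exact two-sided permutation test of the log2 share over 4 against 4 libraries gave p = 0.0286, the smallest that 70 splits can give. Permuted within clones, p was 0.0556, the smallest of 36 arrangements.

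**Figure D1:**
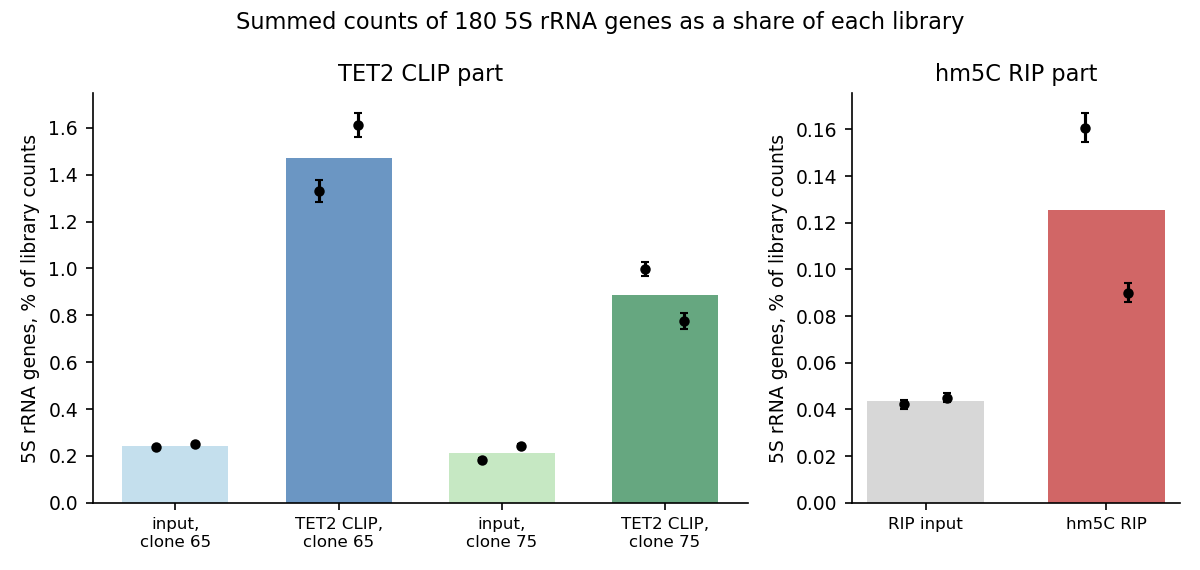
Summed counts of the 180 5S genes as a percentage of all counts, by group (CLIP on the left, RIP on the right, with different vertical scales); bars are means of 2 libraries, points are single libraries and whiskers their Wilson 95% intervals. TET2 CLIP libraries lie between 0.776% and 1.61% and inputs between 0.182% and 0.250%, while hm5C RIP libraries at 0.161% and 0.0899% lie above RIP inputs at 0.0421% and 0.0451%.

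On the scale of CPM with TMM factors, which equalise libraries on the bulk of tested genes, the 5S sum was 2213 and 2222 in the inputs of clone 65 and 16042 and 18158 in its TET2 CLIP libraries. In clone 75 it was 2214 and 2704 in input and 9963 and 7766 in TET2 CLIP. The log2 change of the sum was 2.40 (SE 0.14) over both clones, 2.95 (SE 0.20) in clone 65 and 1.85 (SE 0.19) in clone 75. The edgeR quasi-likelihood test gave adjusted p 9.43e-15, 5.85e-13 and 1.66e-08, and the sum rose under each alternative tried. In bulk libraries, more 5S RNA bound per cell and less of other RNAs recovered cannot be told apart.

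Single members followed the sum. Of the 180, 61 passed the count filter, which asks for about 14.6 CPM in at least 2 libraries. In the test over both clones, 55 of them were higher and 0 lower (edgeR, adjusted p under 0.05), against 8.99% of all 10334 tested rows higher and 5.83% lower. DESeq2's Wald test also called 55 higher and 0 lower, and 0 members were lower at an unadjusted p under 0.05. Their median log2 change was 2.44, with the middle 50% between 1.99 and 2.79, beside a median of -0.03 over all tested rows. Passing the filter depended in part on TET2 CLIP: 40 members reached the level in at least 2 inputs, of which 36 were higher, and 21 reached it only with the help of TET2 CLIP libraries, of which 19 were higher. The 119 untested members held 1.08% to 2.80% of the 5S counts of a CLIP library.

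n-R5s56 (ENSMUSG00000064455), without a RefSeq position, was the most counted member. Its level was 235, 221, 311 and 313 CPM in the 4 inputs and 2732, 2833, 1375 and 1059 CPM in TET2 CLIP, the first pair in each set from clone 65. Every TET2 CLIP library was above every input, and its share of all 5S counts went from a mean of 11.7% in input to 14.8% in TET2 CLIP. Its log2 change was 2.79 (SE 0.13, edgeR adjusted p 2.90e-17).

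n-R5s162 (ENSMUSG00000064515), an rRNA copy on chromosome 6 from 60250792 to 60250910, had the smallest p of all members. It stood at 124, 112, 89.7 and 116 CPM in input and at 1012, 1296, 727 and 561 CPM in TET2 CLIP, and its log2 change was 2.96 (SE 0.13; edgeR, adjusted p 7.08e-18). The groups did not overlap, as for 55 of the 61 tested members and 8.58% of all tested rows; 0 members, against 7.56% of all rows, lay wholly below input. n-R5s136 (ENSMUSG00000096037), in the array from 123599859 to 123599979, was next, at 57.1, 54.6, 116 and 140 CPM in input and 548, 648, 686 and 530 CPM in TET2 CLIP (log2 change 2.83, SE 0.12). Its input level was higher in clone 75, as was that of n-R5s56, and it made up there 5.30% and 5.25% of the input 5S counts, against 2.63% and 2.51% in clone 65.

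Other well counted members rose by differing amounts. n-R5s96 stood at 132, 152, 109 and 160 CPM in input and 1117, 1188, 617 and 498 CPM in TET2 CLIP, and n-R5s175 at 77.6, 78.0, 84.4 and 95.6 against 807, 710, 324 and 299 CPM. Their log2 changes were 2.51 (SE 0.12) and 2.53 (SE 0.11), which do not differ beyond their errors. n-R5s71, n-R5s25, n-R5s1 and n-R5s88 changed by 2.54, 2.49, 2.75 and 2.98, and n-R5s211 and n-R5s28 by 2.19 and 1.86, each called. n-R5s210, n-R5s169 and n-R5s194, lower in level, changed by 2.59, 2.87 and 3.08. Among the 40 members that reached the filter in inputs, n-R5s194 had the largest change. n-R5s92, a dispersed pseudogene on chromosome 9, was at 3.54 (SE 0.24), with 10.5 to 15.8 CPM in input and 75.7 to 242 CPM in TET2 CLIP, but it entered the test only with the help of TET2 CLIP libraries, where it is high.

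**Figure D2:**
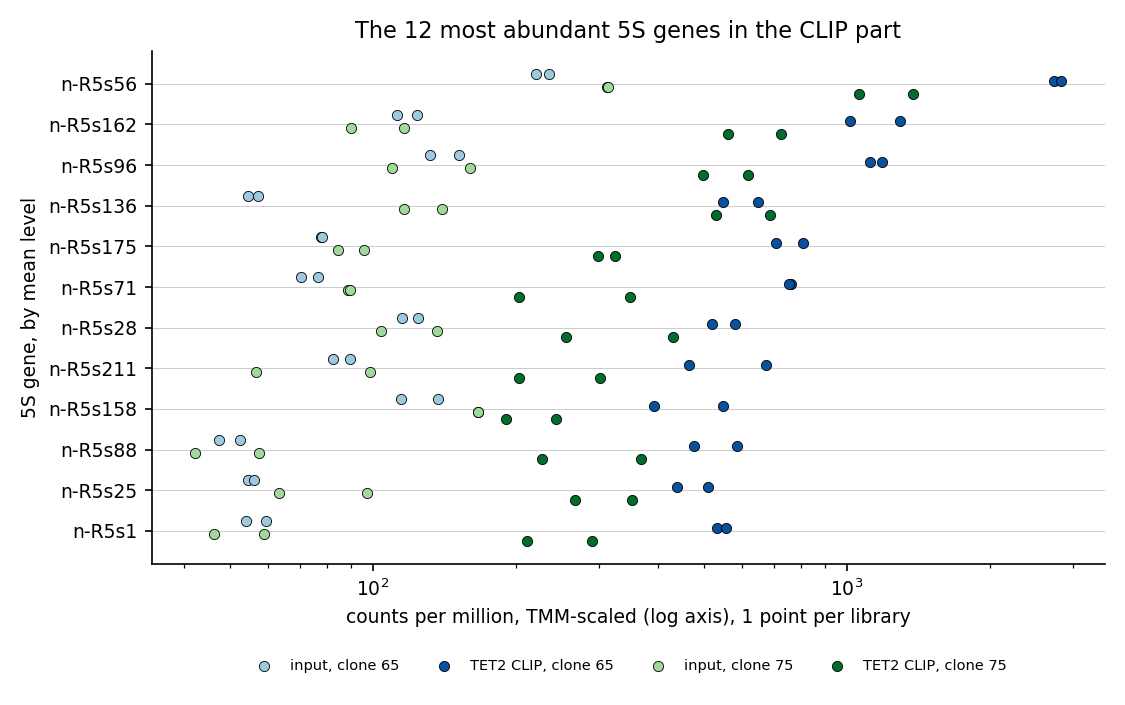
Level of the 12 5S genes with the highest mean over the CLIP libraries, in CPM with TMM factors on a log axis, 1 point per library, coloured by group. All TET2 CLIP points lie to the right of all input points of the same gene, and n-R5s158 shows the narrowest gap, from 167 CPM in its highest input to 191 CPM in its lowest TET2 CLIP library.

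Members of each position and annotation class were higher in TET2 CLIP, with close medians. The 8 tested array members, 3 of which passed the filter only with the help of TET2 CLIP libraries, were all higher, with log2 changes from 2.29 to 3.15 and a median of 2.61. Of the 22 tested dispersed copies with a position, 20 were higher with a median of 2.51, and of the 31 without a position 27 with a median of 2.38. Of these, 7 and 11 likewise passed only with the help of TET2 CLIP libraries, and 6 and 10 of those were higher. Among members that reached the level in inputs, 14 of 15 and 17 of 20 were higher. Dispersed rRNA copies and pseudogenes had medians of 2.43 (8 of 9 higher) and 2.59 (12 of 13). As sums, the array changed by 2.51 (SE 0.13) and all other copies by 2.38 (SE 0.14), a gap within their errors. The array held 10.9% to 14.1% of 5S counts in inputs and 10.7% to 16.1% in TET2 CLIP.

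A few members stood apart at the low end. n-R5s155 was well counted in input, at 45.7, 50.7, 52.7 and 48.3 CPM, and stood at 116, 82.3, 29.3 and 27.9 CPM in TET2 CLIP. It was above input in both TET2 CLIP libraries of clone 65 and below it in both of clone 75, and its log2 change over both clones was 0.12 (SE 0.24, edgeR adjusted p 0.803). n-R5s69 had the same order of libraries, with 19.9 to 27.3 CPM in input, 55.3 and 51.4 in TET2 CLIP of clone 65 and 18.0 and 15.9 in clone 75 (log2 change 0.33). n-R5s58, an rRNA copy on chromosome 12, had overlapping groups at 22.4 to 38.5 and 24.8 to 60.8 CPM (0.31). n-R5s207 had 28, 32, 15 and 48 counts in input and 0, 2, 2 and 2 in TET2 CLIP (log2 change -1.15, SE 0.65). n-R5s166 and n-R5s173, with 1.06 and 1.52, were the last of the 6 that did not pass. n-R5s158 was called over both clones with a smaller change than n-R5s56. It stood at 137, 115, 166 and 167 CPM in input and 548, 391, 243 and 191 in TET2 CLIP (log2 change 1.16, SE 0.13). Its change was 1.90 in clone 65 but 0.42 in clone 75, where it was not called in the first fit. With library size alone it was called there (0.58, edgeR adjusted p 0.0490). Its mean share of 5S counts was 6.36% in input, after n-R5s56 the largest, and 2.57% in TET2 CLIP.

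The clones differed in size of enrichment. In clone 65, 55 of the 61 members were higher and 0 lower, against 8.21% and 2.87% of all tested rows, and in clone 75, 47 were higher and 0 lower, against 6.22% and 3.93%. At an unadjusted edgeR p under 0.05, 0 members were lower in clone 65 and 2 in clone 75 (n-R5s207 and n-R5s155, named after their values were seen), and DESeq2 called 0 lower in either clone. All 47 were also among the 55. The log2 change was larger in clone 65 for 58 members and larger in clone 75 for 3. Median changes were 2.98 and 1.93, beside -0.04 and 0.05 over all rows. Without TET2 CLIP replicate 1 of clone 75, 29 members were higher in that clone.

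The difference of the changes, clone 75 minus clone 65, was tested directly. It was -1.10 (SE 0.26, edgeR adjusted p 0.0199) for the 5S sum, and 16 members were called lower and 0 higher, against 2.22% and 0.329% of all tested rows. At an unadjusted edgeR p under 0.05, 34 were lower and 0 higher, but no share of all rows at that threshold stands beside this count. The median difference of the 61 members was -0.99, beside 0.02 over all tested rows. n-R5s56, with changes of 3.61 and 1.97, differed by -1.64 (SE 0.24), n-R5s175 by -1.51, n-R5s71 by -1.67 and n-R5s158 by -1.48, while n-R5s162, at 3.30 and 2.62, was not among the called ones. The call on the sum depended on scaling: with library size alone it was -0.52 (adjusted p 0.224) and 5 members were called, while the median of all rows moved from 0.02 to 0.60. Relative to that median, the sum was at -1.12 under both. The call was also lost without either input of clone 65 (adjusted p 0.107 and 0.105), without input replicate 2 of clone 75 (0.182) or without TET2 CLIP replicate 2 of clone 75 (0.0961). Of the 14 called members with alternatives computed, 4 kept the call in each: n-R5s56, n-R5s71, n-R5s158 and n-R5s175. The inputs of clone 75 had fewer counts, and clone and depth cannot be told apart.

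**Figure D3:**
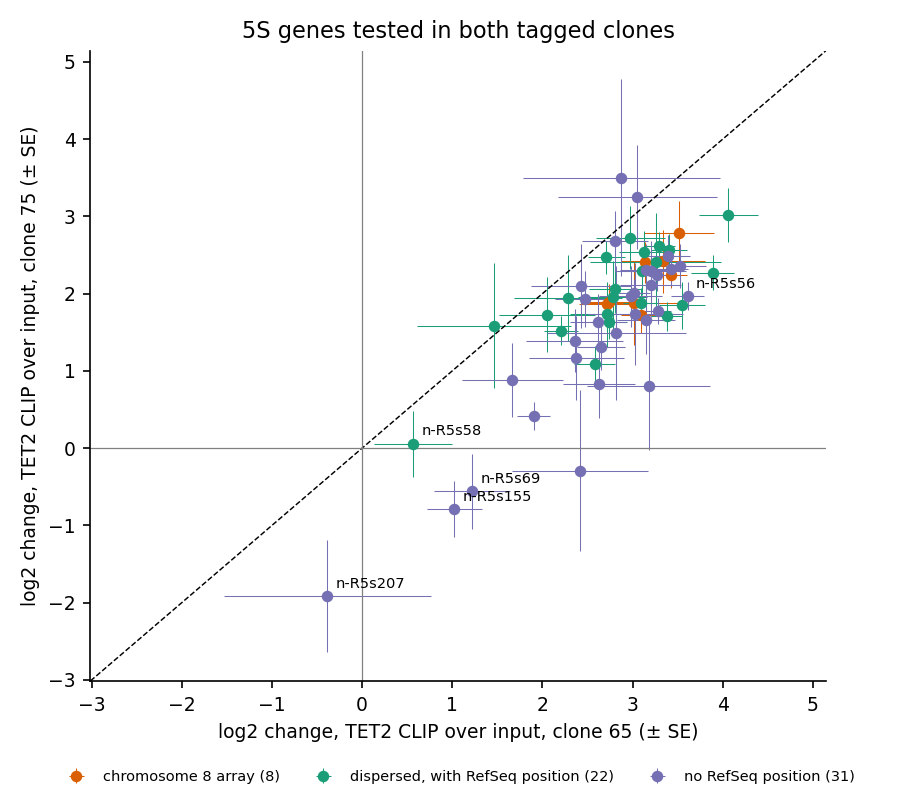
Log2 change of each of the 61 tested 5S genes in TET2 CLIP over input, clone 65 on the horizontal and clone 75 on the vertical axis, with SE bars; colour gives the position class and the dashed line equal change. All but 3 of the genes lie below the line, and n-R5s207, n-R5s155, n-R5s69 and n-R5s58 lie apart at the lower left.

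Other RNAs made by RNA polymerase III moved with 5S in CLIP. All 8 tested rows were higher, against 8.99% of all tested rows: the 7SK RNA Rn7sk, a regulator of transcription elongation, changed by 2.41 (SE 0.14), the signal recognition particle RNAs Rn7s1 and Rn7s2 by 1.40 and 0.90, the Y RNAs Rny1 and Rny3 by 2.31 and 1.69, the vault RNA Vaultrc5 by 2.72, the RNase P RNA Rpph1 by 2.61 and the RNase MRP RNA Rmrp by 4.60. The 5S sum thus lay inside their range. The 5.8S rRNA gene n-R5-8s1, the small RNA cut from the large rRNA precursor, fell by 2.65 on the log2 scale (SE 0.16, edgeR adjusted p 3.37e-14), and of the mitochondrial rRNAs mt-Rnr2 fell by 0.86 while mt-Rnr1 was at -0.04. In clone 75 all 8 rows were still higher than in input, against 6.22% of all tested rows. The clone difference was shared as well. For 6 of the 8 the change was called smaller in clone 75, from -0.98 for Rn7sk to -2.03 for Vaultrc5. In that contrast 2.22% of all tested rows were called lower. With library size alone its median over all rows moved from 0.02 to 0.60.

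Ratios inside a library do not depend on scaling. The ratio of 5S to other polymerase III RNAs was 0.580, 0.602, 0.596 and 0.681 in the 4 inputs and 0.512, 0.459, 0.568 and 0.354 in TET2 CLIP, a difference of -0.40 on the log2 scale. The ratio of 5S to the 435 nuclear tRNA rows was 0.933, 0.947, 1.15 and 1.35 in input and 1.48, 1.45, 1.70 and 1.51 in TET2 CLIP, a difference of 0.50. That of 5S to 5.8S was 2.62 to 3.65 in input and 96.3 to 163 in TET2 CLIP, a difference of 5.14. None of the 3 ratios overlapped between groups. Each gave an exact two-sided permutation p of 0.0286, the smallest possible, and 0.0571 after adjustment over the 6 ratio tests of both experiments.

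In the hm5C RIP, 5S counts were also higher than in input, with more spread. They made up 0.0421% and 0.0451% of RIP input and 0.161% and 0.0899% of hm5C RIP. Both hm5C libraries lay above both inputs, and the first stood well above the second. The means were 0.0436% ± 0.00210 and 0.125% ± 0.050 (SD, n = 2), a ratio of 2.87, and the exact two-sided permutation test cannot go below the p = 0.333 it gave. In CPM with TMM factors the sum was 468 and 464 in input and 1679 and 786 in hm5C RIP, and its log2 change was 1.40 (SE 0.38; edgeR, adjusted p 0.0178). The call held under each alternative tried, but the size ranged from 0.68 to 2.78: it was 0.68 with no count filter, and 2.78 without Acsl6 and with library size alone, where the median of all rows moved from 0.15 to 1.99. Relative to the median of all rows, the sum was at 1.25 in the first fit and 0.79 in the last. Leaving out 1 library, the change of the sum lay between 0.68 and 1.79.

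Of the 180 members, 41 passed the filter of about 2.97 CPM in 2 libraries. Of these, 28 were higher and 1 lower (edgeR, adjusted p under 0.05), against 33.0% and 18.9% of all 2081 tested rows, and their median log2 change was 1.79 beside 0.15. Only 19 members reached the level in both inputs, of which 11 were higher, 1 lower and 7 not called, with a median of 1.41. The other 22 reached it only with the help of hm5C RIP, and 17 of them were higher. DESeq2's Wald test called 20 higher and 1 lower, against 539 and 293 of all 2081 rows. With no count filter 12 were higher and 2 lower of 94 tested, against 591 and 538 of all 21436 rows. Leaving out either input library also lowered the number called higher. In 37 of the 41 both hm5C libraries lay above both inputs, as in 42.3% of all tested rows, and in 1 both lay below, as in 35.0%. The summed levels of some markers of other lineages were also higher in hm5C RIP. The 4 fibroblast markers summed to 2.86 and 3.23 CPM in RIP input and to 35.2 and 44.8 in hm5C RIP. The 4 extraembryonic endoderm markers summed to at most 2.25 and at least 7.62. Only 1 marker of each list passed the count filter, with log2 changes of 3.56 and 7.18, so each sum may rest on 1 gene. The part of these markers in the 5S values was not tested.

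n-R5s88 (ENSMUSG00000065107), annotated as a pseudogene on chromosome 9 from 102127887 to 102128005, was the most counted 5S member in the RIP libraries. It stood at 79.0 and 98.1 CPM in input and 409 and 204 CPM in hm5C RIP, and its log2 change was 1.79 (SE 0.37; edgeR, adjusted p 0.00438). It made up 18.8% of 5S counts in RIP input and 25.5% in hm5C RIP on average, but 2.17% in CLIP input. Without it the sum still rose, by 1.28.

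Among the other members that reached the filter in both inputs, changes differed. n-R5s162 stood at 25.7 and 29.8 CPM in input and 104 and 68.0 in hm5C RIP (log2 change 1.63, SE 0.30), and n-R5s28 at 10.4 and 9.57 against 57.6 and 36.1 (2.21, SE 0.35). n-R5s210 stood at 24.7 and 21.5 against 141 and 34.4 CPM (1.91, SE 0.57), the gap between its hm5C libraries being wider than that between the lower one and input; without hm5C RIP replicate 1 it was at 0.50 and not called (adjusted p 0.120). The call on n-R5s28 held under each alternative, and that on n-R5s162 was lost without RIP input replicate 1 (1.17, adjusted p 0.0598). n-R5s29 and n-R5s151 rose by 1.79 and 1.48, but these calls rested on single libraries and on the filter. n-R5s29 was not called without RIP input replicate 1 or 2 (1.42 and 1.35, adjusted p 0.0979 and 0.115) or with no filter (1.11, 0.0855). n-R5s151 was not called without RIP input replicate 1 or 2 (0.93 and 1.25, adjusted p 0.335 and 0.176), without hm5C RIP replicate 1 (0.57, 0.161) or with no filter (0.79, 0.383). n-R5s56 stood at 36.1 and 30.8 against 49.1 and 45.2 CPM and did not pass (0.49, SE 0.26, edgeR adjusted p 0.158), nor did n-R5s211, at 30.0 and 24.5 against 51.7 and 36.5 (0.69, SE 0.30). Both results turned with the alternatives. n-R5s56 was below 0 with no filter (-0.14) and without RIP input replicate 2 (-0.011), and was called higher with library size alone (0.70, adjusted p 0.0439) and without Acsl6 with library size alone (1.98, 1.78e-05). n-R5s211 was called higher with library size alone (0.89, adjusted p 0.0214), without hm5C RIP replicate 2 (0.87, 0.0036) and without Acsl6 with library size alone (2.15, 9.31e-06). Of the 21 named members called higher in RIP, 7 kept the call in every alternative: n-R5s88, n-R5s28, n-R5s194, n-R5s41, n-R5s64, n-R5s156 and n-R5s170.

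Members that were scarce in RIP input had the largest changes. n-R5s194, an rRNA copy on chromosome 3, had 7 and 14 counts in input and 91 and 21 in hm5C RIP (log2 change 3.79, SE 0.87). n-R5s41, a dispersed pseudogene on chromosome 15, had 2 and 4 against 31 and 10 (4.03, SE 0.89). n-R5s64, n-R5s156 and n-R5s204 rose by 3.16, 3.10 and 3.32, and n-R5s43 and n-R5s7 by 2.39 and 2.48. DESeq2 did not call n-R5s43 (adjusted p 0.103) or n-R5s7 (0.0779), and edgeR called neither without either input or with no filter, nor n-R5s204 without RIP input replicate 1 (2.57, 0.108). n-R5s170 had 1 and 2 counts in input and 37 and 18 in hm5C RIP, too few in input for a fold. In each of n-R5s194, n-R5s41, n-R5s64, n-R5s156 and n-R5s170 the first hm5C library was the higher one. These genes passed the filter only with the help of hm5C RIP libraries, so a low value there would have kept them out of the test.

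**Figure D4:**
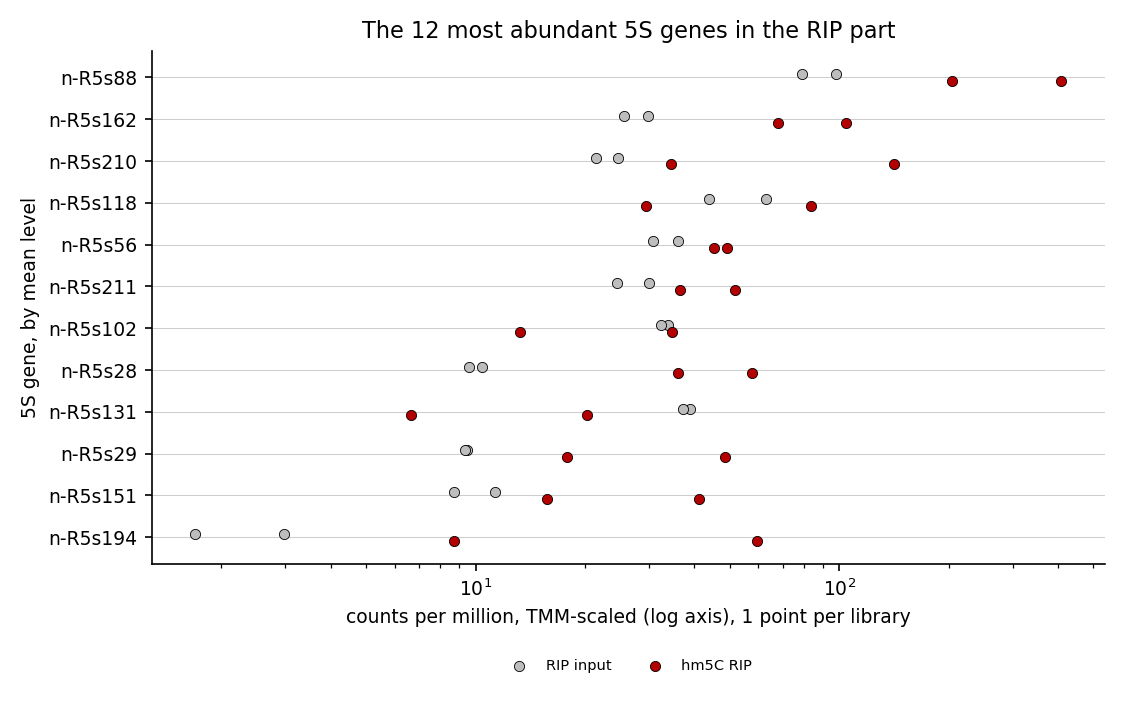
Level of the 12 5S genes with the highest mean over the RIP libraries, in CPM with TMM factors on a log axis, 1 point per library. For n-R5s88 and n-R5s162 both hm5C RIP points lie to the right of both inputs, whereas for n-R5s131 both lie to the left and for n-R5s118 and n-R5s102 the groups overlap.

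Among the 7 tested array members, 2 were higher in hm5C RIP, 1 was lower and 4 were not called, shares close to the 33.0% and 18.9% of all tested rows. n-R5s131 (ENSMUSG00000096358, 123591371 to 123591489) stood at 39.0 and 37.2 CPM in RIP input and 20.3 and 6.64 in hm5C RIP and was the member called lower (log2 change -1.56, SE 0.48, edgeR adjusted p 0.0252). n-R5s102 (123542178 to 123542296) stood at 33.9 and 32.3 against 34.7 and 13.3 CPM (-0.50, SE 0.43), and n-R5s118 (123569328 to 123569446) at 62.7 and 43.8 against 83.8 and 29.4 (0.07, SE 0.46). Both had overlapping groups and neither passed, but calls in both directions appeared in the alternatives. n-R5s102 was called lower with no filter (-1.17, adjusted p 0.0181) and without hm5C RIP replicate 1 (-1.39, 4.05e-05), and higher without Acsl6 with library size alone (0.92, 0.0371). n-R5s118 was called lower without hm5C RIP replicate 1 (-0.93, adjusted p 0.00301), and higher without hm5C RIP replicate 2 (0.60, 0.0486) and without Acsl6 with library size alone (1.48, 0.000948). The call on n-R5s131 was lost in that last fit (-0.14, adjusted p 0.776). n-R5s114 and n-R5s136 were at -0.74 and 0.26 and did not pass either. Called higher were n-R5s109 (123554060 to 123554178), at 3.88 and 2.13 against 24.9 and 9.95 CPM (2.5, SE 0.58), and n-R5s115 (123564286 to 123564404), at 3.15 and 4.89 against 13.8 and 9.54 (1.5, SE 0.46), both of which passed the filter only with the help of hm5C RIP. The call on n-R5s115 was lost with DESeq2 (adjusted p 0.086), with no filter (0.85, 0.619) and without RIP input replicate 1 or 2 (0.88 and 1.46, 0.533 and 0.273), and that on n-R5s109 without RIP input replicate 2 (1.70, 0.126). Of the dispersed copies with a position, 14 of 19 were higher, and of those without one 12 of 15, with 0 lower in either. Of these, 7 and 11 passed the filter only with the help of hm5C RIP, and 6 and 9 of those were higher. Among members that reached the level in inputs, 8 of 12 and 3 of 4 were higher, against 0 of 3 in the array. The difference between these classes was not tested over genes.

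Summed, the array stood at 151 and 132 CPM in RIP input and 195 and 80.7 in hm5C RIP (log2 change -0.05, SE 0.40, edgeR adjusted p 0.943), and the other copies at 317 and 331 against 1477 and 708 (1.75, SE 0.38, adjusted p 0.00568). The direction of the array sum was not stable. It was 0.082 with library size alone, 0.41 without hm5C RIP replicate 2, -0.88 without hm5C RIP replicate 1 and 1.33 without Acsl6 and with library size alone. Relative to the median of all rows it was -0.20 in the first fit and -0.66 in the last. The share of the array among 5S counts needs no scaling: it was 32.3% and 28.5% in RIP input and 11.7% and 10.2% in hm5C RIP, with no overlap. Most of it lay in n-R5s118, n-R5s131 and n-R5s102. Their mean shares of 5S counts were 11.3%, 8.08% and 7.02% in RIP input and 4.43%, 1.04% and 1.90% in hm5C RIP. The sum and share of the array thus rest mainly on these genes and do not describe each array member. With 2 libraries a group no permutation p can fall below 0.333.

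The copies that carried counts differed between the experiments, which used different cells and library kits. In CLIP input the 5 largest were n-R5s56, n-R5s158, n-R5s96, n-R5s28 and n-R5s162, with 34.2% of 5S counts. In RIP input they were n-R5s88, n-R5s118, n-R5s131, n-R5s56 and n-R5s102, with 52.3%. n-R5s96 made up 6.02% of 5S counts in CLIP input and 0.142% in RIP input, with 2 and 4 counts there, and n-R5s158 6.36% and 0.145%. In the other direction, n-R5s131 made up 0.395% in CLIP input and 8.08% in RIP input. Across the 122 members with a count, Spearman's rho of mean shares was 0.70 between the inputs, 0.93 between CLIP input and TET2 CLIP and 0.89 between RIP input and hm5C RIP, as a description over genes that share libraries.

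Changes in the experiments were set side by side for the 34 members tested in both. Each of the 34 was higher in CLIP, so the 24 higher in both are simply those called higher in RIP. There, 33.0% of all tested rows were higher. The 24 are 43.6% of the 55 higher in CLIP and 85.7% of the 28 higher in RIP. However, 27 members were tested in CLIP only and 7 in RIP only, so these percentages do not measure agreement. Spearman's rho of the log2 changes was -0.31 over the 34 genes, given as a description. n-R5s118, at 0.07 in hm5C RIP, changed by 2.77 in TET2 CLIP. n-R5s131 and n-R5s102, at -1.56 and -0.50 in hm5C RIP, were at 2.88 and 2.44 in TET2 CLIP, but they entered that test only with the help of TET2 CLIP libraries, so a high level there was a condition of being tested. n-R5s194 and n-R5s88 rose in both.

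**Figure D5:**
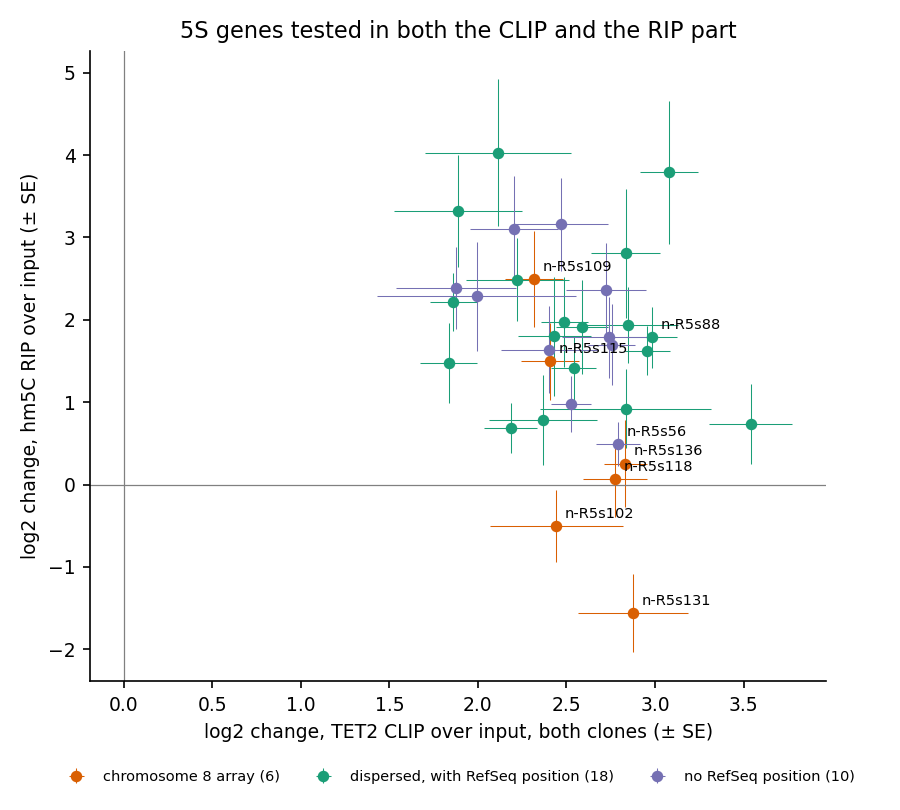
Log2 change of the 34 5S genes tested in both experiments, TET2 CLIP over input (both clones) on the horizontal and hm5C RIP over input on the vertical axis, with SE bars and the position class in colour. All lie to the right of 0 in CLIP, and 2 array genes, n-R5s131 and n-R5s102, lie below 0 in RIP.

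In hm5C RIP the other RNAs made by RNA polymerase III were mostly lower or not called. Of 8 polymerase III rows, 1 was higher (Rn7s1, 0.79) and 4 were lower, against 33.0% and 18.9% of all tested rows: Rny1 at -1.47, Rpph1 at -1.35, Rn7sk at -0.98 and Rmrp at -0.93. These calls are from the first fit. Without Acsl6 and with library size alone, 88 of all 2523 rows were lower. The ratio of 5S to the other polymerase III RNAs needs no scaling. It was 0.346 and 0.300 in RIP input and 1.95 and 1.03 in hm5C RIP, a difference of 2.14 on the log2 scale. The ratio to nuclear tRNA rows was 0.0264 and 0.0261 against 0.132 and 0.0711 (difference 1.88), and that to 5.8S rRNA 0.551 and 0.466 against 1.66 and 0.656 (1.04). None overlapped, and each exact permutation p was 0.333, the smallest possible. n-R5-8s1 itself was at 0.23 and not called, and of the mitochondrial rRNAs mt-Rnr2 was called lower (-1.05) and mt-Rnr1, at -0.52, was not.

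The mRNAs of proteins that make or bind 5S rRNA were not called in CLIP over both clones. Of 8 tested genes of the 5S particle and its assembly, 0 were called in either direction over both clones by edgeR or by DESeq2. Over all tested rows edgeR called 8.99% higher and 5.83% lower, and at these shares 0 of 8 says little about the set. Rpl11 alone was at an unadjusted edgeR p under 0.05. The median log2 change of the 8 was 0.19 beside -0.03 over all rows. Rpl5 stood at 104 ± 32.6 CPM in TET2 CLIP and 98.5 ± 10.5 in input (mean ± SD, n = 4 each; log2 change 0.09) and Rpl11 at 92.1 ± 18.6 and 70.4 ± 4.38 (0.41). Ssb, the La protein that binds the ends of new polymerase III transcripts, was at 0.32 over both clones but rose in clone 65 (1.53, SE 0.41, edgeR adjusted p 0.00983) and stood at -0.90 in clone 75, a difference of -2.43 (adjusted p 0.0295). Of the 8 genes, Ssb alone was called in clone 65 and in the clone difference. Beside it, 8.21% of all tested rows were higher in clone 65 and 2.22% lower in the difference. Of 26 tested genes of the polymerase III machinery, 0 were called over both clones by edgeR or DESeq2, against 8.99% and 5.83% of all rows by edgeR. At an unadjusted edgeR p under 0.05, 1 was higher and 3 were lower, and the median was 0.06. In the RIP experiment only 2 of these mRNAs could be tested, and 18.9% of all tested rows were lower there. Rpl5 was lower, at 13.7 ± 2.91 against 76.8 ± 8.18 CPM (log2 change -2.51, SE 0.30, edgeR adjusted p 0.000586, n = 2 each). Gtf3a, the gene of TFIIIA, was at -0.44 and not called.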

How the data were processed

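The authors deposited raw read counts per gene, whole numbers with differing column totals, for 8 CLIP and 4 RIP libraries. The tools named in the submitters' processing notes are STAR 2.5.3a, Bowtie2 2.2.6, cutadapt and UMI-tools, and the build is mm10; the role of each tool, the counting step, the use of strand and the handling of reads that map to several 5S copies are not given in the sources used here. Groups followed the sample titles, and the design text calls the replicates biological. The small RNA libraries were not used.

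The tests used edgeR 4.0.16 under R 4.3.3: TMM scaling, filterByExpr (a minimum count of 10 and a total of 15), a robust quasi-likelihood fit and F-test, and Benjamini-Hochberg adjustment over all tested rows at a threshold of 0.05. CLIP was fitted over 4 groups of 2 libraries, RIP over 2 groups of 2. CPM are counts per 1000000 scaled by library size and TMM factor. Sums replaced the rows they hold in a separate fit. For sums, shares and ratios, members that failed the filter were kept. Shares and ratios were compared by exact permutation. An array was a run of at least 5 genes with gaps up to 100 kb. The members and gene lists were chosen with earlier results of these data known. Members named were the 12 with the highest mean CPM in each part and up to 12 called members a comparison by smallest p; those outside that rule (n-R5s207, n-R5s155, n-R5s58, n-R5s69, n-R5s92, n-R5s114, n-R5s166 and n-R5s173) were named after their values were seen. Alternatives were scaling by library size alone or by DESeq2 size factors, no filter, the Wald test of DESeq2 1.42.0, a replicate block, leaving out each library in turn, RIP without Acsl6, sums without the most counted 5S gene, another share denominator, 0 or 1 count added to ratios and a 10 kb gap. Adding the array genes outside the naming rule to the sum was chosen after seeing the data. The fits were also run on simulated counts with the same spread for all genes, which is simpler than these data and is no check of the results above. Intervals cover counting error only.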

Additional observations from a re-analysis of the deposited data

Results flagged for a closer look

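The change in TET2 CLIP over input differed between the clones by a test of the difference itself (clone 75 minus clone 65, edgeR). It was -1.10 for the 5S sum, -0.95 for the array sum and -1.13 for the other copies. The call was lost in 5 of 15 alternatives for the 5S sum, in 9 of 14 for the array and in 5 of 14 for the other copies. For the array these include leaving out either input of clone 65 or of clone 75, TET2 CLIP replicate 2 of clone 65 or TET2 CLIP replicate 2 of clone 75 (adjusted p 0.0656 to 0.373). For the other copies they include leaving out either input of clone 65, input replicate 2 of clone 75 or TET2 CLIP replicate 2 of clone 75 (0.0736 to 0.170). Among single genes it was called, in the fit of all libraries, for n-R5s155 (-1.81), n-R5s93 (-1.70), n-R5s71 (-1.67), n-R5s56 (-1.64), n-R5s194 (-1.62), n-R5s175 (-1.51), n-R5s151 (-1.49), n-R5s158 (-1.48), n-R5s115 (-1.36), n-R5s218 (-1.34), n-R5s25 (-1.21), n-R5s136 (-1.18), n-R5s211 (-1.11), n-R5s169 (-1.11), n-R5s1 (-1.04) and n-R5s96 (-1.01). All 16 were smaller in clone 75. For n-R5s155 the direction itself differed, with TET2 CLIP above input in clone 65 and below it in clone 75.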

How the results depend on the processing

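The rise of the 5S sum in TET2 CLIP and in hm5C RIP kept its direction and its call under every alternative run. The clone difference did not: with library size alone it was -0.52 for the sum, -0.38 for the array and -0.55 for the other copies, none called, and 5 members were called lower in place of 16 (9 with no count filter, where the array was at -0.74 and not called). At library size alone all rows split 638 higher to 104 lower, against 34 to 229, and in RIP without Acsl6 1686 to 88, against 686 to 394. Leaving out 1 library gave -1.28 to -0.86 for the sum, -1.17 to -0.68 for the array, -1.30 to -0.90 for the other copies and 4 to 19 members lower. Members higher in clone 75 numbered 29 to 47 and lower 0 to 1.

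In RIP, members higher numbered 12 and lower 2 with no count filter, 43 and 0 without Acsl6 and with library size alone, and 10 to 32 and 1 to 5 leaving out 1 library. The array sum turned to 0.082 with library size alone and 1.33 without Acsl6 and with library size alone, and lay between -0.88 and 0.41 leaving out 1 library. n-R5s102 turned to 0.92 without Acsl6 and with library size alone and lay between -1.39 and 0.010 leaving out 1 library. n-R5s118 turned to -0.61 with no count filter, -0.062 with the replicate block and -0.14 without Acsl6, and lay between -0.93 and 0.60. n-R5s136 turned to -0.37 with no filter and lay between -0.17 and 0.21, and n-R5s56 turned to -0.14 with no filter and lay between -0.011 and 0.50. The cause was not tested.

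Genes of the polymerase III machinery called lower in CLIP numbered 1 with library size alone and 4 with no filter. In the same fits 922 of all 10334 and 1871 of all 38054 tested rows were lower, so these counts say little about the set. In RIP 1 was higher without Acsl6 and with library size alone, where 1686 of all 2523 rows were higher. Genes of the 5S particle called lower in RIP numbered 1 to 2.

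Replicate numbers did not pair the samples (correlations of deviations -0.0082, 0.017 and 0.018). With the replicate number as a block, 10 members were called lower in the clone difference, and its array sum was -0.95 with adjusted p 0.0694. With 221060 to 453944 counts in TET2 CLIP, members under about 14.6 CPM were out of reach.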
